A study of Moesziomyces aphidis with 9 samples.

Results

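The genes described here were already transcribed by Moesziomyces aphidis on glucose and stood far higher once soybean oil was present. They were chosen by their values in 6 libraries of 50 bp reads, 3 from glucose cultures and 3 from cultures with oil. RPKM, the unit of all levels, scales reads to gene length and library size. A member averaged 10 RPKM or more across these libraries and 5 RPKM or more on glucose. Its log2 ratio of medium means, with 1 RPKM added to each, was 2 or more, and its lowest oil value exceeded its highest glucose value. Of the 75 genes that passed these limits, 16 lay in runs of 3 or more consecutive gene numbers that all rose and were dropped. This left 59 members of the 6952 genes in the files. Their levels in the 6 libraries, the changes between the media and the lack of overlap therefore follow from the choice and are given as a description, without a test.

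M. aphidis, once called Pseudozyma aphidis, belongs to the smut fungi and secretes mannosylerythritol lipids, a class of surface-active glycolipids. All libraries came from strain DSM70725, kept at 30 °C for 114 h in a medium based on yeast extract. The glucose cultures held 40 g/l glucose, are labelled as not induced and consisted of blastospores, the yeast-like cells. The oil cultures held the same 40 g/l glucose and a further 70 g/l soybean oil, and are labelled as induced and filamentous. Both media were thus made with glucose, and the effects of oil and of cell form cannot be told apart. In RNA from whole cultures, more RNA per cell and more cells that carry it cannot be told apart either. The titles mark 3 replicates per medium as br, and the labels do not say whether these were separate cultures. The stranded libraries, 1 per medium, are labelled as replicate 1, and a paired-end library with 95 bp reads is labelled as soybean oil replicate 2. The rule used none of these 3. The stranded libraries also have 50 bp reads, but the term 50 bp libraries is kept for the 6 unstranded ones.

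As background, fungi that feed on plant oil split it with secreted lipases, activate the released fatty acids as coenzyme A esters and shorten them by beta-oxidation. The resulting acetyl-CoA enters the glyoxylate cycle, which lets the cell build sugars from fat. In smut fungi the enzymes of mannosylerythritol lipid synthesis are encoded by genes that lie side by side, and fatty acids supply the acyl chains of these lipids. The files give genes as numbers and do not pair them with names or products, so none of these roles is assigned to a member. By identifier only the most abundant member and the one with the largest change are given, and the others are called by their rank, where rank 1 has the largest change.

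The 6 libraries of 50 bp reads held 8108888 to 11100455 reads and the paired-end library 31573726. Each member had at least 36 reads in every 50 bp glucose library and at least 307 in every 50 bp oil library. The paired-end library stood apart from the 3 oil libraries of 50 bp reads, including the one with the same replicate label. Across the 6486 genes that averaged 1 RPKM or more it correlated at r = 0.886 with that library, while the 50 bp oil libraries correlated with each other at 0.982 to 0.989, all on the log2(RPKM + 1) scale. Among the glucose libraries, replicate 3 stood slightly apart, at r = 0.967 and 0.970 with the other glucose libraries, which correlated with each other at 0.994. Genes share their libraries and are not independent replicates. The paired-end values of members are therefore kept out of all means and are given separately.

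The medium means of the members spanned a wide range. On glucose 16 members had a mean under 10 RPKM, 29 lay from 10 to under 50, 9 from 50 to under 100, and 5 reached 100 or more. The median was 27.2 RPKM on glucose, where that of all 6486 genes was 34.1. With oil their median was 214 RPKM, against 32.0 for all genes. In that medium 6 members reached at least 1000 RPKM, 35 lay from 100 to under 1000, and 18 stayed under 100. In the order of levels, 31 members were among the 500 highest genes with oil and 4 on glucose, and 6 were among the 100 highest with oil and 1 on glucose. Of the reads that fell in genes, the members together took 0.671% ± 0.0288 on glucose and 4.48% ± 0.138 with oil (SD, n = 3). Without the most abundant member these shares were 0.369% ± 0.0194 and 2.75% ± 0.0707 (SD, n = 3).

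**Figure D1:**
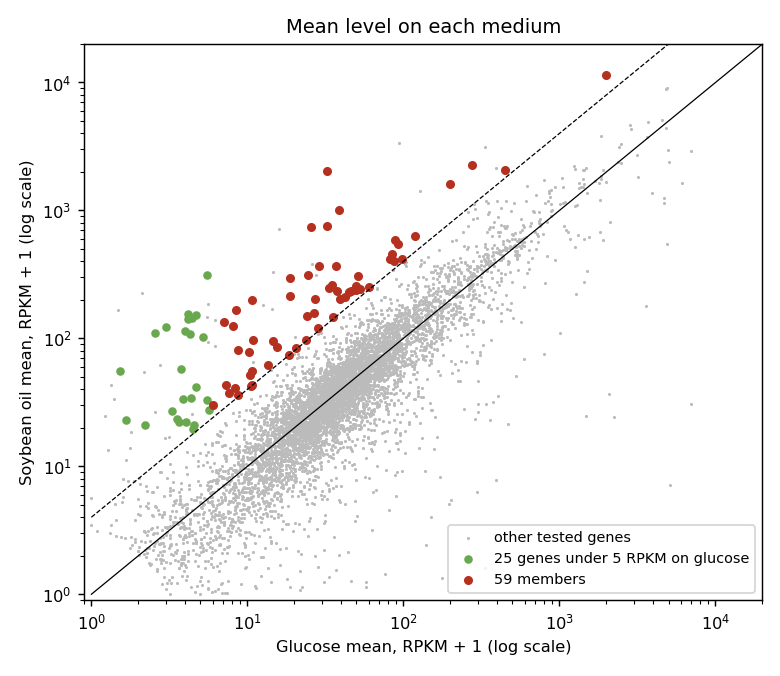
Mean level on glucose (x axis) and with soybean oil (y axis) of the 6486 genes that averaged 1 RPKM or more, in RPKM + 1 on log scales, each point a gene and each mean over 3 libraries of 50 bp reads. The solid line marks equal levels and the dashed line a 4-fold rise; the 59 members (red) lie above the dashed line from 5 to 1978 RPKM on glucose, and the 25 genes that pass the same limits with a glucose mean under 5 RPKM are green.

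The change, taken as the difference of the mean log2(RPKM + 1) values of the media, had a median of 2.54 over the members and ranged from 1.99 to 5.98. It was at least 4 in 7 members, from 3 to under 4 in 10, from 2.5 to under 3 in 15 and under 2.5 in 27. The median over all 6486 genes was -0.06. Values of the media did not overlap in any member, as the rule required, and 27.3% of all genes were higher with oil in this way. In a limma fit over all genes the 59 members each had an adjusted p under 0.05 and at least a 2-fold rise, as did 6.63% of all genes, and nothing is read from this because the same libraries chose the members. The distance between the media varied more than the rule asked. The lowest oil value was 2.04 times the highest glucose value in the narrowest case, 4.66 times in the median member and 54.7 times in the widest.

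PaG_05962 had the largest change, which made it rank 1. It stood at 32.8, 26.2 and 34.7 RPKM in the 3 glucose libraries and at 1897, 2083 and 2085 with oil. The replicates of each medium lay close together and far from the other medium. The means were 31.2 ± 4.47 and 2021 ± 108 RPKM (SD, n = 3). On the log2 scale this was a difference of 5.98 (SE 0.14). In the order of levels it went from place 3480 of all genes on glucose to place 30 with oil.

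PaG_00588 was the most abundant member and, at place 1, the most abundant gene of all with oil. Already strong on glucose, it stood at 1809, 1800 and 2327 RPKM there, which was place 29. With oil its values were 11625, 10833 and 11655 RPKM. The log2 fold change of 2.53 (SE 0.19) placed it at rank 31, near the middle of the members. Of the reads of all members it supplied a large part in both media, as the shares with and without it show.

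The other 5 members with at least 1000 RPKM in oil differed in where they started. Rank 3 had 37.8 RPKM on glucose and reached 1006 ± 106 with oil (SD, n = 3). Ranks 16, 17 and 46 started from 275 ± 50.0, 199 ± 18.3 and 445 ± 72.7 RPKM on glucose and reached 2246 ± 221, 1620 ± 41.7 and 2084 ± 362 with oil (SD, n = 3). The fifth is rank 1, given above. Among these most abundant members, ranks 1 and 3 thus had glucose levels close to the median of all genes, and the others had higher ones. Over the members the glucose level and the log2 fold change were nearly unrelated, with r = -0.14 over 59 genes, a value limited by the choice of members and by the added 1 RPKM.

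Among the large changes, rank 2 stood at 24.4, 28.2 and 21.3 RPKM on glucose and at 965, 460 and 808 with oil. Its oil replicate 2 was well below the other oil replicates. The reverse held for rank 6, with 7.44, 7.16 and 3.63 RPKM on glucose and 81.9, 183 and 139 with oil, and for rank 9, with 18.5, 21.1 and 13.5 on glucose and 169, 384 and 335 with oil. In both of these, oil replicate 1 was the lowest of its medium and replicate 2 the highest. Differences of at least 2-fold between the highest and lowest oil replicate, on RPKM + 1, occurred in 5 members (8.47%) and in 2.90% of all genes.

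The typical spread between replicates was close to that of other genes. The median SD of log2(RPKM + 1) among the 3 glucose libraries was 0.18 over the members and 0.19 over all 6486 genes, and among the 3 oil libraries it was 0.17 and 0.16. The upper quartile among the oil libraries was higher in the members, at 0.31 against 0.25. Glucose replicate 3 was the lowest of its medium in 30 of the 59 members (50.8%) and in 60.6% of all genes. It was the highest in 21 members (35.6%) and in 28.5% of all genes. Rank 34 was such a case, with 64.5 and 60.1 RPKM in glucose replicates 1 and 2 and 118 in replicate 3, and with 442, 366 and 439 with oil.

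Rank 30 was the least even member. It stood at 73.8, 58.3 and 12.8 RPKM on glucose and at 150, 308 and 255 with oil. Glucose replicate 3 was far below the other glucose replicates, and the log2 fold change of 2.54 had an SE of 0.58, the largest of all members. Rank 50 was uneven on glucose too, with 118, 115 and 56.1 RPKM, and it had 431, 389 and 431 with oil. After adding 1 RPKM, these were the 2 members (3.39%) whose highest and lowest glucose replicates differed at least 2-fold, against 4.67% of all genes. Without the added 1 RPKM, rank 6 passed this limit as well.

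**Figure D2:**
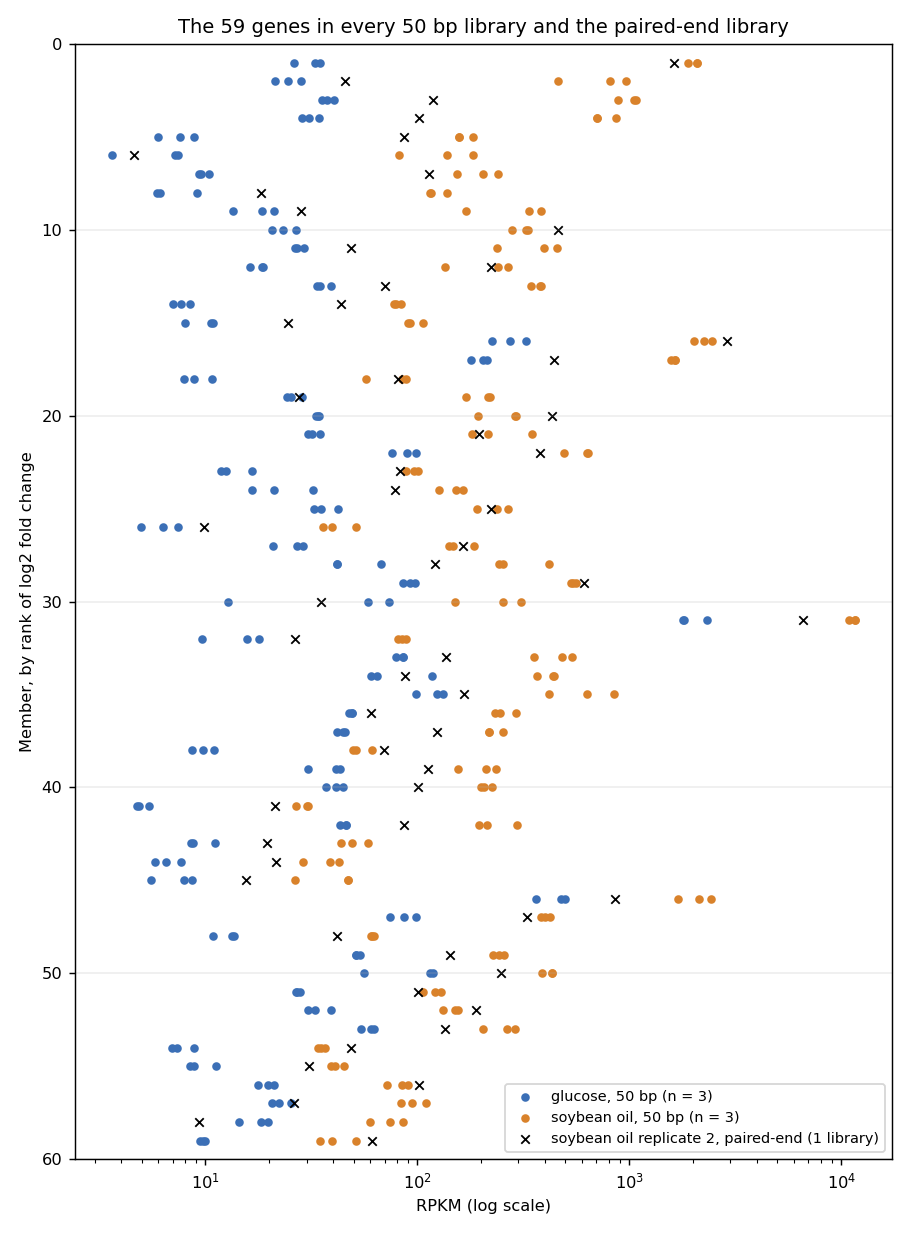
RPKM on a log scale (x axis) of each of the 59 members (y axis, by rank of log2 fold change) in the 3 glucose (blue) and 3 soybean oil (orange) libraries of 50 bp reads and in the paired-end library (cross). Blue and orange points do not overlap in any member, as the rule requires, while the crosses lie below the lowest orange point in 45 members and at or below the highest blue point in 5.

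Members at a limit of the rule lay close to genes just outside it in the value that the limit concerns, but not always in other values. The smallest log2 ratios of medium means among the members were 2.005 and 2.008, and the largest below the limit were 1.998 and 1.994. The weakest member on glucose, rank 41, stood at 4.75, 4.87 and 5.40 RPKM there, with a log2 ratio of 2.33. The strongest genes left out for their glucose level had glucose means of 4.68 and 4.54 RPKM. Their log2 ratios were 2.29 and 5.82, so the latter gene rose far more than rank 41. No gene outside the runs passed the limits on level and change while its media overlapped.

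Gene lengths, worked out from the RPKM values, were unremarkable. They had a median of 1596 bp over the members (299 to 5896) and of 1702 bp over all 6486 genes. The dropping of runs limited how closely the members could lie by gene number. Of the members, 4 were next to another member, in 2 pairs, and 6 had numbers above 10000. The shares of all genes were not worked out for these counts, so neither is read as a result. Of the 100 tested genes numbered just before or after a member, 11 were at least 2-fold higher with oil, against 6.69% of all genes, and 19 were at least 2-fold lower, against 12.2% of all genes. The 4 members next to another member are counted among these 100 genes, and their rise follows from the rule. The share of higher genes is therefore not read as a result about the neighbours. The median log2 fold change of the 100 genes was -0.01. The labels do not say whether consecutive numbers are neighbours on the genome.

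The pair with the larger changes was ranks 3 and 4. Rank 3 stood at 40.5, 37.3 and 35.6 RPKM on glucose and at 1079, 885 and 1056 with oil. Rank 4, the next number, stood at 34.2, 28.6 and 30.7 on glucose and at 861, 704 and 706 with oil. Both had close to equal levels and log2 fold changes, 4.69 and 4.56. The second pair, ranks 26 and 34, had log2 fold changes of 2.58 and 2.41 but very different levels, with oil means of 42.4 ± 8.14 and 416 ± 42.8 RPKM (SD, n = 3).

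The stranded pair was compared to see how the members stood in libraries made with another kit. These libraries carry the label of replicate 1, so they are no new replicates, and with 1 library per medium there is no test. After 1 was subtracted from the deposited values, 58 of 59 members were higher with oil. On the RPKM + 1 scale, 56 of them (94.9%) were at least 2-fold higher and 39 at least 4-fold. Of all genes 4.66% were at least 2-fold and 1.53% at least 4-fold higher in this pair. The median difference on the log2(RPKM + 1) scale was 2.26 over the members and -0.35 over all genes. Scaling the stranded libraries by the median of the oil to glucose ratios of single genes left 57 members at least 2-fold higher, against 8.53% of all genes. The choice of members had used the 50 bp libraries of replicate 1. When the rule was applied without both of these, 59 of 64 members (92.2%) were at least 2-fold higher in the stranded pair, with a median difference of 2.17.

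Single members kept their large differences in the stranded pair. PaG_05962 stood at 23.9 RPKM on glucose and 997 with oil, and PaG_00588 at 1698 and 9102. For rank 2 the values were 19.8 and 461, and for rank 6 they were 4.54 and 52.7. Rank 11 had 21.0 and 600 RPKM, a log2 difference of 4.77 against 3.62 in the 50 bp libraries.

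On the RPKM + 1 scale, the 3 members under 2-fold in the stranded pair were ranks 30, 40 and 54. Rank 30 stood at 172 RPKM on glucose and 156 with oil, rank 40 at 164 and 223, and rank 54 at 18.8 and 38.0. Without the added 1 RPKM, the ratio of rank 54 was 2.02, just past 2-fold. All 3 had at least 2-fold higher values in the stranded glucose library than in the 50 bp glucose library of replicate 1, which gave 73.8, 44.6 and 8.81 RPKM. No other member did so, and 1.73% of all genes did. Their stranded oil values were less than 2-fold from the 50 bp oil values of replicate 1, at 150, 205 and 33.9 RPKM. In the other direction, 10 members were at least 2-fold lower in the stranded than in the 50 bp glucose library, as were 18.7% of all genes. With oil 13 members were, as were 21.8% of all genes. Whether the library kit plays a part in these differences was not tested.

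**Figure D3:**
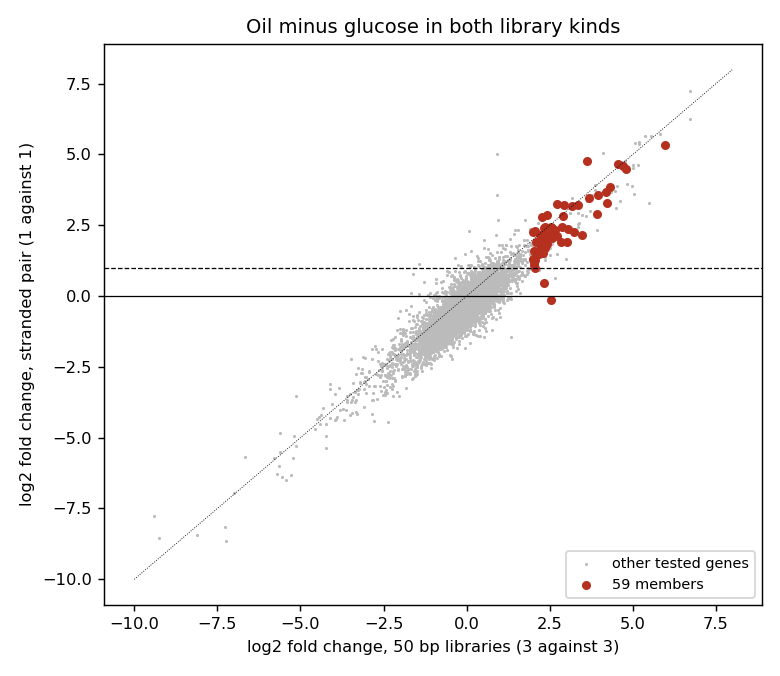
Difference between soybean oil and glucose on the log2(RPKM + 1) scale in the 50 bp libraries (x axis, means of 3 against 3) and in the stranded pair (y axis, 1 library against 1), each point a gene. The solid line marks no difference, the dashed line a 2-fold rise in the stranded pair and the dotted line equal changes; 56 of the 59 members (red) lie above the dashed line and 1, rank 30, lies below the solid line at -0.14.

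The paired-end library had lower values than the 50 bp libraries in most members. Of the 59, 45 lay below the lowest of the 3 oil libraries of 50 bp reads, 5 within their range and 9 above it, while 22.4% of all genes lay below. Against the 50 bp library with the same label, 26 members (44.1%) were at least 2-fold lower and 13 at least 4-fold lower in the paired-end library. Of all genes 4.41% were at least 2-fold and 1.23% at least 4-fold lower. The median difference on the log2(RPKM + 1) scale was -0.86 over the members and 0.28 over all genes. The rule had used the 50 bp library of this replicate. Chosen without that library, 27 of 62 members (43.5%) were at least 2-fold lower, with a median difference of -0.84. The paired-end library is a single one, so no replicate error can be given for it.

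Several members with large changes had far lower paired-end values. Of the 15 members with the largest log2 fold changes, 9 were at least 4-fold lower in the paired-end library than in the 50 bp library of oil replicate 2, a library that enters both measures. Rank 6 had 183 RPKM in the 50 bp library and 4.59 in the paired-end library, which rested on 221 reads and lay within its glucose values of 3.63 to 7.44. Rank 2 had 460 and 45.6 RPKM, and rank 9 had 384 and 28.4. Ranks 3 and 4, which have consecutive numbers, were both lower in the paired-end library, at 118 against 885 and at 102 against 704 RPKM. PaG_05962, with the largest change of all, kept a high value, at 2083 RPKM in the 50 bp library and 1632 in the paired-end library. PaG_00588 had 10833 and 6592 RPKM.

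Set against glucose, the paired-end library held a middle position. It lay above the highest glucose library in 54 members, a count for which the share of all genes was not worked out. It was at least 2-fold above the glucose mean in 41 members (69.5%) and at least 4-fold above it in 20, against 15.4% and 3.04% of all genes. The median difference from glucose was 1.56, compared with 2.54 for the 50 bp oil libraries, and both differences share the glucose libraries. Over all genes these medians were 0.26 and -0.06, so the members' values rest on different baselines. In 18 members the paired-end library was within 2-fold of the glucose mean, and in none was it at least 2-fold below. Of all genes 6.29% were at least 2-fold below, and most were within 2-fold of the glucose mean. It lay at or below the highest glucose library in ranks 6, 19, 30, 34 and 58, and below all 3 glucose libraries in rank 58, with 9.31 RPKM against 14.5 to 19.6. The members took 2.38% of its reads in genes, between the shares of the media.

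At the other end, 9 members were higher in the paired-end library than in any oil library of 50 bp reads. The share of all genes for which this held was not worked out. Against the 50 bp library of oil replicate 2, 15.7% of all genes and no member were at least 2-fold higher. Rank 10 stood at 278, 334 and 324 RPKM in the 50 bp oil libraries and at 460 in the paired-end library. Rank 20 stood at 194, 291 and 290 and at 431. Rank 16, the shortest member with 299 bp, stood at 2017, 2458 and 2264 and at 2898. The difference between the libraries was nearly unrelated to gene length over the members, with r = 0.04 over 59 genes of the same 2 libraries.

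The members were set beside genes with a like response to see which of these values were shared. The 25 genes that pass the same limits with a glucose mean under 5 RPKM had a median paired-end difference of -1.04, and 13 of them (52.0%) were at least 2-fold lower there than in the 50 bp library. The 250 genes with a log2 ratio from 1 to under 2, again outside runs, had a median of -0.15, and 33 of them (13.2%) were at least 2-fold lower. Genes that fell moved the other way. Of the 154 genes with a mean of 10 RPKM or more that were at least 4-fold lower with oil without overlap, 103 (66.9%) were at least 2-fold higher in the paired-end library, as were 15.7% of all genes. All these groups were chosen on libraries that include the 50 bp library of oil replicate 2. Whether the paired-end library came from the same RNA as that library is not stated in the labels, and the part of library preparation in these differences was not tested.

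**Figure D4:**
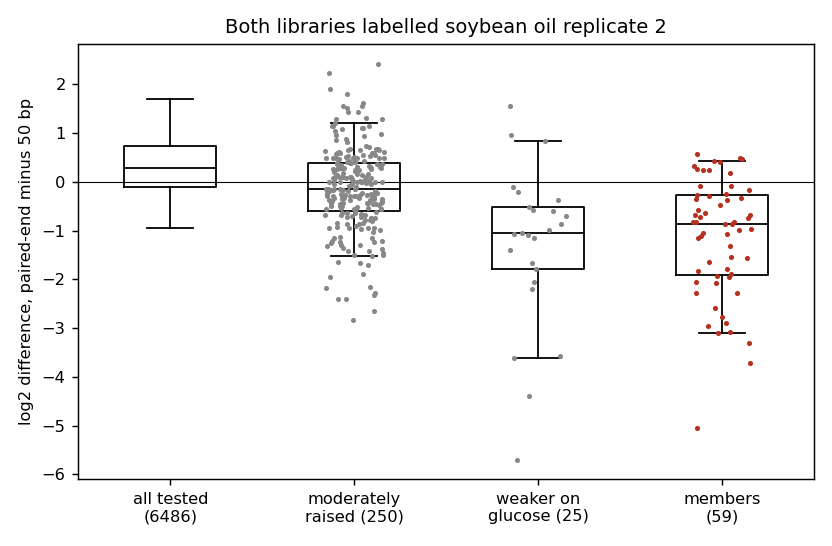
Difference between the paired-end and the 50 bp library labelled soybean oil replicate 2 on the log2(RPKM + 1) scale (y axis) for all genes tested and 3 groups of genes that rose with oil. Boxes span the quartiles with the median as a line, whiskers reach from percentile 5 to percentile 95, and points are single genes, shown for the smaller groups only; the median is 0.28 over all genes and -0.86 over the members.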

How the data were processed

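The authors deposited RPKM values per gene for 9 libraries and, per the file headers, TopHat junction lists with counts of reads that span each junction. Alignment was done with TopHat 1.4.1 per the submitters' processing notes. Names of the genome build, annotation and counting tool were not given in the sources used here. The deposited junction counts were summed per library (163851 to 224962 in the 6 unstranded 50 bp libraries, 2532134 in the paired-end library) and were not linked to genes. The stranded libraries, also of 50 bp reads, have 2 lists each, with 98593 and 97781 reads on glucose and 41375 and 40475 with oil.

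Reads, gene lengths and library totals were worked out from the deposited RPKM values of the 7 unstranded libraries, with whole reads for 6952 of 6952 genes (100%, tolerance 1e-06 read). The stranded files list no value under 1, and 155 and 282 values of exactly 1. It was taken that 1 had been added, and 1 was subtracted. These files list 6948 genes.

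Changes are differences of mean log2(RPKM + 1), which understates the change of weak genes. SEs and calls came from limma 3.58.1 in R 4.3.3 with an intensity trend, on genes that averaged 1 RPKM or more, with Benjamini-Hochberg adjustment. Nothing in the labels says that replicates were separate cultures, so p-values cover only the spread among these libraries, which may be technical. The procedures were tested on simulated data. The quasi-likelihood test of edgeR 4.0.16 on the recovered reads was an alternative, and it called 502 of 6473 genes at least 2-fold higher with oil, against 430 of 6486 by limma.

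The members and comparison groups were chosen with earlier results of these data known. The genes given by identifier are the member with the highest oil mean and that with the largest log2 fold change. Lists of pathway genes had been written as product names and could not be applied to numbered genes.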

Additional observations from a re-analysis of the deposited data

Results flagged for a closer look

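For the member at rank 30 the 50 bp libraries and the stranded pair differed in the sign of the change. All 3 oil libraries of 50 bp reads lay above all 3 glucose libraries, while in the stranded pair oil was below glucose, with a log2 difference of -0.14. The median over all genes in that pair was -0.35, so rank 30 lay above the typical gene there. Its sign in the stranded pair thus depends on how the pair is scaled. In the 50 bp libraries of replicate 1 it stood at 73.8 RPKM on glucose and 150 with oil. The difference between the library kinds was not tested, since the stranded kind has 1 library per medium. No group had the 4 samples needed to look for single samples far from the others.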

How the results depend on the processing

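The number of members was 59 and moved with the limits of the rule, to 123 with a log2 ratio of at least 1.5 and to 30 with at least 2.5. It was 73 and 43 with a glucose mean of at least 3 and 10 RPKM, and 75 with runs kept. Leaving out 1 library gave 58 to 62 members, and 47 of the 59 stayed under all 6 such settings. Without glucose replicate 3, 52 of the 59 stayed and 9 others entered. With the paired-end library in place of soybean oil replicate 2 the rule found 67 genes, 46 of them members, 47 of the 59 members were called at least 2-fold higher by limma, and the members' median log2 fold change was 2.18 against 2.54; the cause was not tested. All 59 were called under the other alternatives, among them a pseudocount of 0.1, both scalings and edgeR. The median ranged from 2.46 to 2.60 when 1 library was left out. In these runs the log2 fold change of PaG_05962 ranged from 5.86 to 6.06 and that of PaG_00588 from 2.47 to 2.65.

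Deviations from the medium means correlated at -0.19, 0.23 and 0.05 between same-numbered replicates. Between replicates with unlike numbers they correlated at -0.25 to 0.21. These values cannot decide whether samples were paired by number, since the deviations within a medium cancel out. With the replicate number as a block, 59 members were called. For the stranded and paired-end libraries, the counts stayed within 1.5 times the reported ones under each alternative run. The alternatives for the counts in the paired-end library were added after the data had been examined. So was the stranded count for members chosen without replicate 1 of both media. The runs that left out 1 library, and the one with the paired-end library in place of oil replicate 2, had been planned. No replicate error could be given for the stranded pair, with 1 library per medium, or for the paired-end library, the only one of its kind.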

Other observations

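The members and the 25 genes weaker on glucose differed in which oil library was highest. Oil replicate 2 was the highest of its medium in 21 of 59 members (35.6%), in 16 of the 25 weaker genes (64.0%) and in 45.7% of all 6486 genes. Oil replicate 1 was the lowest in 42.4%, 68.0% and 53.2%. The differences between these groups were not tested.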
